A study of Mus musculus with 9 samples.

Results

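The mesothelium is the flat cell layer that covers the outer, serosal face of the gut. Its genes were followed through 7 members: Wt1, Bnc1, Upk3b, Upk1b, Msln, Lrrn4 and Gpm6a. The members were taken as every probe set of the array whose only annotated gene symbol is one of these names. This gave 12 probe sets for 7 genes, of 34945 single-symbol probe sets for 18193 genes. The arrays held RNA of small intestinal mesenchyme from C57Bl/6J mouse embryos at E18.5, freed of epithelium, kept on a collagen matrix for 48 h and then exposed for 24 h to the ligand Shh (Sonic hedgehog), the ligand Ihh (Indian hedgehog) or a Vehicle, with 3 arrays each. No sample carried a genetic change. Neither the dose of the ligands nor the composition of the Vehicle is stated in the labels. The 6 wells of a treatment were pooled at random into 3 samples, so the p-values measure the spread between pools of wells, which may be technical in part.

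Mesothelial cells form a simple epithelium of mesodermal origin. They carry keratins and junction proteins like other epithelia, together with transcription factors of the coelomic lining, and in the embryo they give rise to fibroblasts and smooth muscle of visceral organs. Wt1 and Bnc1 encode zinc finger transcription factors. Upk3b and Upk1b encode uroplakins, membrane proteins known from the urothelium, and Upk1b is a tetraspanin. Msln encodes mesothelin, a surface glycoprotein on a lipid anchor. Lrrn4 encodes a membrane protein with leucine-rich repeats, and Gpm6a encodes a membrane glycoprotein that is also abundant in neurons. The bulk RNA cannot tell fewer cells of a type from less RNA per cell.

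The members were faint on these arrays. Of the 12 probe sets, 11 lay below the array median on all 9 arrays, where the medians ran from 5.87 to 5.92 log2. Over all members and arrays the values ran from 3.56 to 6.73 log2. The exception was Msln, which lay below the median on 4 arrays and above it on the other 5. The array median is only a working mark, since no detection call was given, and levels of different probe sets are not comparable with each other. Values this low are compressed, so differences may be understated. The signal of genes that define mesothelium was thus weak on these arrays. Gpm6a reached no higher than the 12.7th percentile of probe sets on any array, and Wt1 lay between the 25.8th and 35.3rd percentiles.

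The promoters of Upk3b, Bnc1 and Lrrn4 are shown, 3 members that were all highest on the array Vehicle 1. Lrrn4 shared variation with the other members mainly through that 1 array, and the Gpm6a promoters are not printed. RefSeq sequence of build GRCm38.p6 was given for 4 of the 7 members (Lrrn4, Upk3b, Bnc1 and Gpm6a, the last with more than 1 start), and Wt1, Upk1b and Msln were not matched. Each line gives the 250 bases before the annotated start, 5′ to 3′ on the strand of the gene, with matches to the TEAD motif in capitals, which reads GGAATG on one strand and CATTCC on the other. The windows are chr5:136038246-136038495 on the plus strand for Upk3b, chr7:81992300-81992549 on the minus strand for Bnc1 and chr2:132880863-132881112 on the minus strand for Lrrn4.
Upk3b: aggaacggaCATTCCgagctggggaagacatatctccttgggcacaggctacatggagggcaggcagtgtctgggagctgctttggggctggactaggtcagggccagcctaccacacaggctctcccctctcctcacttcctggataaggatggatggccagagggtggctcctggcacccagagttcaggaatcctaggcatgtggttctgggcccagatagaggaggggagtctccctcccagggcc
Bnc1: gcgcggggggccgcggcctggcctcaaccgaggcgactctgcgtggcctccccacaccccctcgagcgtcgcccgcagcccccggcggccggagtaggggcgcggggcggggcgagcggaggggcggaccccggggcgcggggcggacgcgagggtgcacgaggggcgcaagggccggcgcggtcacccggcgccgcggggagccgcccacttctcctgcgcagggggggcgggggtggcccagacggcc
Lrrn4: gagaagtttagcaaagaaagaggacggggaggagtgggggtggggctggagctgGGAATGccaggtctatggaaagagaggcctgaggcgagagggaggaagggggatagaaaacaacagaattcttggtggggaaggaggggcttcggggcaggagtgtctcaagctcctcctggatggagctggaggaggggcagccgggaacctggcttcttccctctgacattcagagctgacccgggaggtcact
Of the 5 promoters of these 4 genes, 3 held a TEAD match, against 12.6% of all 32851 promoters of this length. The matches began 241 bases before the start in Upk3b, 196 in Lrrn4 and 125 in 1 of the Gpm6a promoters, and none overlapped another searched motif. No member promoter held the WT1 and EGR motif GCGTGGGNG, read as CNCCCACGC on the opposite strand and present in 1.65% of promoters, or the GLI motif GACCACCCA, read as TGGGTGGTC on the opposite strand and present in 0.225%. A match is a description of letters and no evidence of binding.

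The known hedgehog targets were higher with the ligands. Ptch1, the hedgehog receptor that the pathway itself induces, stood at 10.41, 10.88 and 10.35 log2 with Shh and 10.57, 10.49 and 10.98 with Ihh, against 9.25, 9.11 and 9.06 with Vehicle. The Gli1 range was 5.63 to 6.56 log2 on the 6 treated arrays and 5.01 to 5.44 with Vehicle, and that of Hhip was 5.34 to 5.68 and 4.69 to 5.09. In all 3 genes every treated array lay above every Vehicle array, and limma gave adjusted p of 0.000622 for Ptch1, 0.0443 for Gli1 and 0.0243 for Hhip with both ligands. The pools differed in Xist, the RNA of the inactive X chromosome of females. It lay at 6.34 to 6.48 log2 on Shh 3, Vehicle 2 and Vehicle 3 and at 10.04 to 11.31 on the other 6 arrays, so Vehicle 1 was the only Vehicle array with a high level; its part in the results below was not tested.

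None of the 7 mesothelial genes passed the test for a ligand effect. In the comparison of both ligands with Vehicle, limma placed 0 of 7 past an adjusted p of 0.05, and 1.51% of all 18193 genes (274) were past it, 0.434% higher and 1.07% lower. Without adjustment 1 member, Lrrn4, had a p under 0.05, and the share of all genes at that unadjusted level was not computed. The count was also 0 of 7 for Shh against Vehicle (1.73% of all genes, 0.489% higher and 1.24% lower, and 1 member unadjusted, Upk3b). It was 0 of 7 for Ihh against Vehicle (0.649%, with 0.192% higher and 0.456% lower, and 0 members unadjusted) and for Shh against Ihh (0.011%, 0 members unadjusted). With the replicate number as a block in a fit of the Ihh and Vehicle arrays alone, 280 genes and 0 members were called. The same arrays without the block gave 87 genes, and the main fit 118. A count of 0 of 7 is near these backgrounds and says nothing particular of the members. The median difference of the members was -0.06 log2 for both ligands, against 0.00 over all genes tested. Treated and Vehicle arrays overlapped for all 7 members, while 6.47% of all genes had no overlap. The plot of levels by array shows the overlap gene by gene.

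**Figure D1:**
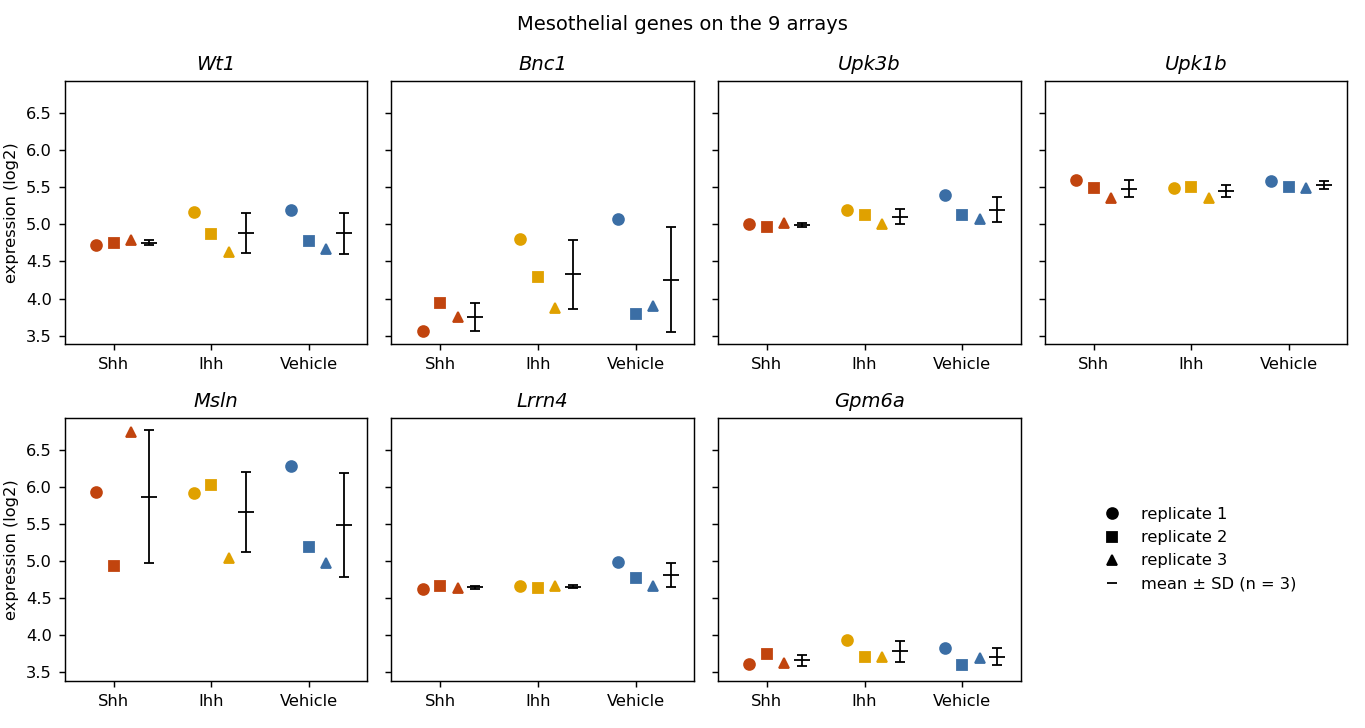
Expression (log2) of each mesothelial gene on the 9 arrays, by treatment, with 1 symbol per replicate and the mean ± SD (n = 3) beside each group. The 6 treated arrays as a set overlap Vehicle in all 7 genes. In Upk3b all Shh arrays lie below all Vehicle arrays, a separation whose share over all genes was not counted. Msln spans 4.94 to 6.73 log2, and Vehicle 1 and Ihh 1 stand highest for Bnc1 and Wt1.

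Wt1, which marks the coelomic lining and is needed for mesothelial development in the mouse, stood at 4.72, 4.75 and 4.79 log2 with Shh and 5.17, 4.86 and 4.63 with Ihh, against 5.20, 4.77 and 4.67 with Vehicle. The Shh arrays lay close together, and Ihh and Vehicle each had 1 high array, Ihh 1 and Vehicle 1. Wt1 differed by -0.06 ± 0.13 log2 (SE) for both ligands together (limma, adjusted p = 0.901), with a 95% confidence interval from -0.35 to 0.23. The difference was -0.13 for Shh (adjusted p = 0.684) and 0.01 for Ihh (adjusted p = 0.998), both against Vehicle.

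Bnc1, the basonuclin factor of mesothelium and stratified epithelia, had the same high arrays. Its values were 3.56, 3.94 and 3.75 log2 with Shh and 4.81, 4.28 and 3.88 with Ihh, against 5.06, 3.79 and 3.90 with Vehicle. Ihh 1 and Vehicle 1 lay above all Shh arrays, and the Shh arrays lay closer together than those of Ihh or Vehicle. Bnc1 averaged 3.75 ± 0.19 with Shh, 4.32 ± 0.47 with Ihh and 4.25 ± 0.71 with Vehicle (SD, n = 3 each). The difference was -0.50 ± 0.32 log2 (SE) for Shh against Vehicle (limma, adjusted p = 0.432) and -0.57 ± 0.32 for Shh against Ihh (adjusted p = 0.456). Its intervals were wide, from -1.22 to 0.22 and from -1.29 to 0.14, so these arrays leave the size of any Bnc1 difference poorly bounded. The Shh difference from Vehicle was -0.0956 without Vehicle 1 and -0.73 without Vehicle 2, and that from Ihh was -0.33 without Ihh 1.

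Of the uroplakins, Upk3b was measured at 5.0, 4.96 and 5.01 log2 with Shh and 5.19, 5.12 and 5.0 with Ihh, against 5.39, 5.12 and 5.08 with Vehicle. All Shh arrays lay below all Vehicle arrays, and the nearest were 5.01 on Shh 3 and 5.08 on Vehicle 3. The share of all genes with such a separation of Shh from Vehicle was not counted. It is a weaker condition than separation of all treated arrays from Vehicle. The difference for Shh against Vehicle was -0.20 ± 0.09 log2 (SE), with a limma adjusted p of 0.239, and it was -0.11 without Vehicle 1. A second probe set of Upk3b gave 4.20, 4.54 and 4.31 with Shh and 5.04, 4.69 and 4.23 with Ihh, against 5.34, 4.24 and 4.56 with Vehicle, where Vehicle 2 lay below Shh 2 and Shh 3. The separation of the first probe set was thus not shared by the second.

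Upk1b had 4 probe sets, which disagreed in how far they varied. The one with the highest mean level was flat, at 5.59, 5.49 and 5.36 log2 with Shh and 5.49, 5.50 and 5.35 with Ihh, against 5.59, 5.50 and 5.48 with Vehicle. Another ranged from 4.59 to 5.61, with Vehicle 1 highest and Vehicle 3 lowest. The other two are of a less specific kind, whose probes can match related transcripts, as are the only Wt1 probe set, the second of Upk3b and the one used for Gpm6a. Of these, one ranged from 4.47 to 5.07 with Shh 3 highest, and the other from 4.78 to 5.59 with Vehicle 1 highest. Tested singly among all probe sets, none was past the threshold in any of the 4 comparisons. The probe set with the highest mean differed by -0.06 ± 0.06 log2 (SE) for both ligands (limma, adjusted p = 0.764).

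Msln, the mesothelin gene, varied most among the members. It stood at 5.93, 4.94 and 6.73 log2 with Shh and 5.91, 6.02 and 5.05 with Ihh, against 6.29, 5.18 and 4.98 with Vehicle. High and low arrays occurred in every treatment, and the spread within Shh alone was 1.80 log2. The difference for both ligands was 0.28 ± 0.40 log2 (SE, limma, adjusted p = 0.835), with an interval from -0.62 to 1.18. It was 0.0281 without Vehicle 3, 0.0639 without Shh 3, 0.13 without Vehicle 2, 0.43 without Ihh 3, 0.51 without Shh 2 and 0.68 without Vehicle 1. Of all members Msln had the widest interval, so the ligand effect on it was the least well bounded.

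Lrrn4 stood at 4.63, 4.67 and 4.63 log2 with Shh and 4.67, 4.63 and 4.66 with Ihh, against 4.99, 4.77 and 4.67 with Vehicle. The treated arrays were almost level, and Vehicle 1 and Vehicle 2 lay above all of them. The difference for both ligands was -0.16 ± 0.07 log2 (SE), with a limma adjusted p of 0.324, and it was -0.07 without Vehicle 1. Gpm6a lay at 3.61, 3.75 and 3.63 log2 with Shh and 3.94, 3.70 and 3.70 with Ihh, against 3.83, 3.6 and 3.70 with Vehicle, and differed by 0.01 ± 0.07 (SE, limma, adjusted p = 0.98). Its other probe set ranged from 3.56 to 3.83 with Ihh 2 highest. The plot of differences sets these intervals side by side.

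**Figure D2:**
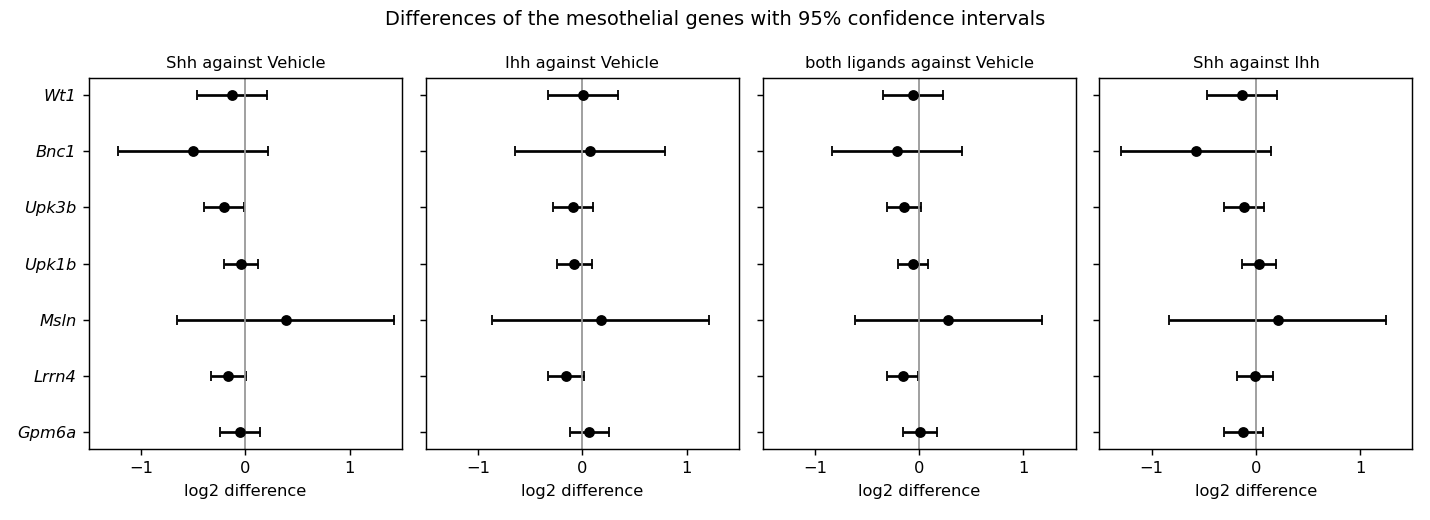
Difference in log2 expression (horizontal axis) of each mesothelial gene (vertical axis) in 4 comparisons, as points with 95% confidence intervals from limma. The intervals of 6 or more of the 7 genes include 0 in every comparison, and those of Msln and Bnc1 are the widest.

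The members varied between pools of the same treatment, and several did so together. Wt1, Bnc1, Upk3b and Lrrn4 were all highest on Vehicle 1, and Wt1, Bnc1 and Upk3b were next highest on Ihh 1. The share of all genes highest on Vehicle 1 was not computed, nor was r over pairs of other genes. Whether the shared variation is particular to the members is therefore not shown. As a description over the 9 arrays, Pearson's r was 0.93 between Wt1 and Bnc1, 0.88 between Upk3b and Bnc1, 0.88 between Gpm6a and Bnc1, 0.85 between Wt1 and Upk3b and 0.84 between Upk3b and Lrrn4. Without Vehicle 1 these were 0.87 for Wt1 and Bnc1, 0.74 for Upk3b and Bnc1, 0.92 for Gpm6a and Bnc1, 0.74 for Wt1 and Upk3b, and 0.34 for Upk3b and Lrrn4. Lrrn4 thus shared variation with the others mainly through that 1 array. Over all 21 pairs of members r ranged from 0.08 to 0.93 with a median of 0.50, and the median was 0.65 with the treatment means removed and 0.14 without Vehicle 1. The second Upk3b probe set followed Bnc1 at r = 0.97, and the Upk1b probe sets did so at 0.82, 0.77, 0.53 and, for the flat one, 0.35. The other Gpm6a probe set had r of 0.18 with Bnc1 and 0.02 with the first, so the likeness of Gpm6a to Bnc1 was seen in 1 of its 2 probe sets. Msln had lower r, at 0.32 to Bnc1, 0.53 to Wt1 and 0.37 to Upk3b, and these values turned on single arrays. Without Shh 3, the array highest in Msln, they were 0.63, 0.75 and 0.68. Without Vehicle 1 they were 0.11, 0.42 and 0.14, and with the treatment means removed 0.53, 0.65 and 0.75.

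**Figure D3:**
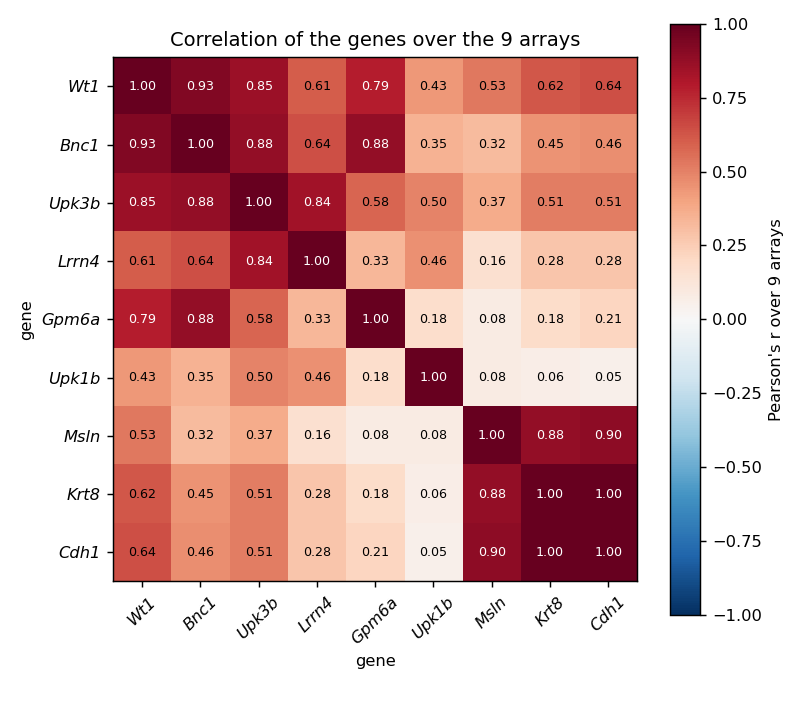
Pearson's r over the 9 arrays for each pair of the 7 mesothelial genes and the epithelial genes Krt8 and Cdh1 (both axes are genes, and colour and number give r). Wt1, Bnc1 and Upk3b lie between 0.85 and 0.93 with each other, and Msln is nearest to Krt8 and Cdh1, at 0.88 and 0.90.

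Msln followed the epithelial genes Krt8, a keratin of simple epithelia including mesothelium, and Cdh1, the E-cadherin of epithelial junctions. Krt8 stood at 9.62, 7.60 and 10.62 log2 with Shh and 10.32, 10.16 and 9.06 with Ihh, against 10.62, 9.35 and 7.54 with Vehicle. Cdh1 stood at 7.04, 4.94 and 8.37 with Shh and 7.98, 7.62 and 6.39 with Ihh, against 8.28, 6.66 and 4.71 with Vehicle. The 4 arrays lowest in Msln, which were Shh 2, Ihh 3, Vehicle 2 and Vehicle 3, were also the 4 lowest in Krt8 and in Cdh1, and each treatment had at least 1 of them. Krt8 and Cdh1 correlated with each other at r = 0.997, so they are not independent partners.

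In an exact two-sided permutation test over the 362880 pairings of 9 arrays, Msln correlated with Krt8 at Pearson's r = 0.88 (p = 0.00086, adjusted p = 0.00623 over 14 relations) and Spearman's rho = 0.92 (exact p = 0.00131). With Cdh1 Pearson's r was 0.90 (exact permutation p = 0.00089, adjusted p = 0.00623) and Spearman's rho 0.93 (exact p = 0.00075). Without Vehicle 3 and Shh 2, the arrays farthest from the median of either partner, r was 0.92 with both (exact permutation p = 0.00238 for Krt8 and 0.00198 for Cdh1, n = 7 arrays). With the treatment means removed, r was 0.94 with each, at an exact p of 0.00926 from 216 permutations within treatments, whose smallest possible p is 0.00463. The Msln values had a gap between 5.18 and 5.91 log2, with 4 arrays under it and 5 over it, too few on either side for a correlation within each.

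Msln was the only member whose Pearson correlation with these partners passed adjustment, with 2 of 14 relations past 0.05. The share of all genes that correlate this strongly with Krt8 or Cdh1 was not computed. Whether such a correlation is particular to Msln is therefore not shown. Wt1 reached r = 0.62 with Krt8 (exact permutation p = 0.0541, adjusted p = 0.189) and 0.64 with Cdh1 (exact permutation p = 0.0511, adjusted p = 0.189). Its rank correlation with Krt8 was past the threshold, at Spearman's rho = 0.83 (exact p = 0.00827, adjusted p = 0.0386). That with Cdh1 was not, at Spearman's rho = 0.78 (exact p = 0.0172, adjusted p = 0.0603). Upk3b had r of 0.51 with each, Bnc1 0.45 and 0.46, Lrrn4 0.28 and 0.28, Gpm6a 0.18 and 0.21, and Upk1b 0.06 and 0.05, all with exact permutation p of 0.152 or more, and none of their rank correlations passed adjustment. With the treatment means removed, Upk3b reached 0.74 with Krt8 and 0.77 with Cdh1 (both exact permutation p = 0.00926, adjusted p = 0.0324). The less specific Upk1b probe set that was highest on Shh 3 gave 0.82 and 0.85 (exact permutation p = 0.00554 and 0.00432, both adjusted p = 0.0333 over 24 relations of single probe sets), and it tracked Msln at r = 0.90. The plot of Msln, Wt1 and Bnc1 against both partners shows where they part. Shh 3 was high in Krt8, Cdh1 and Msln but not in Wt1 or Bnc1.

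**Figure D4:**
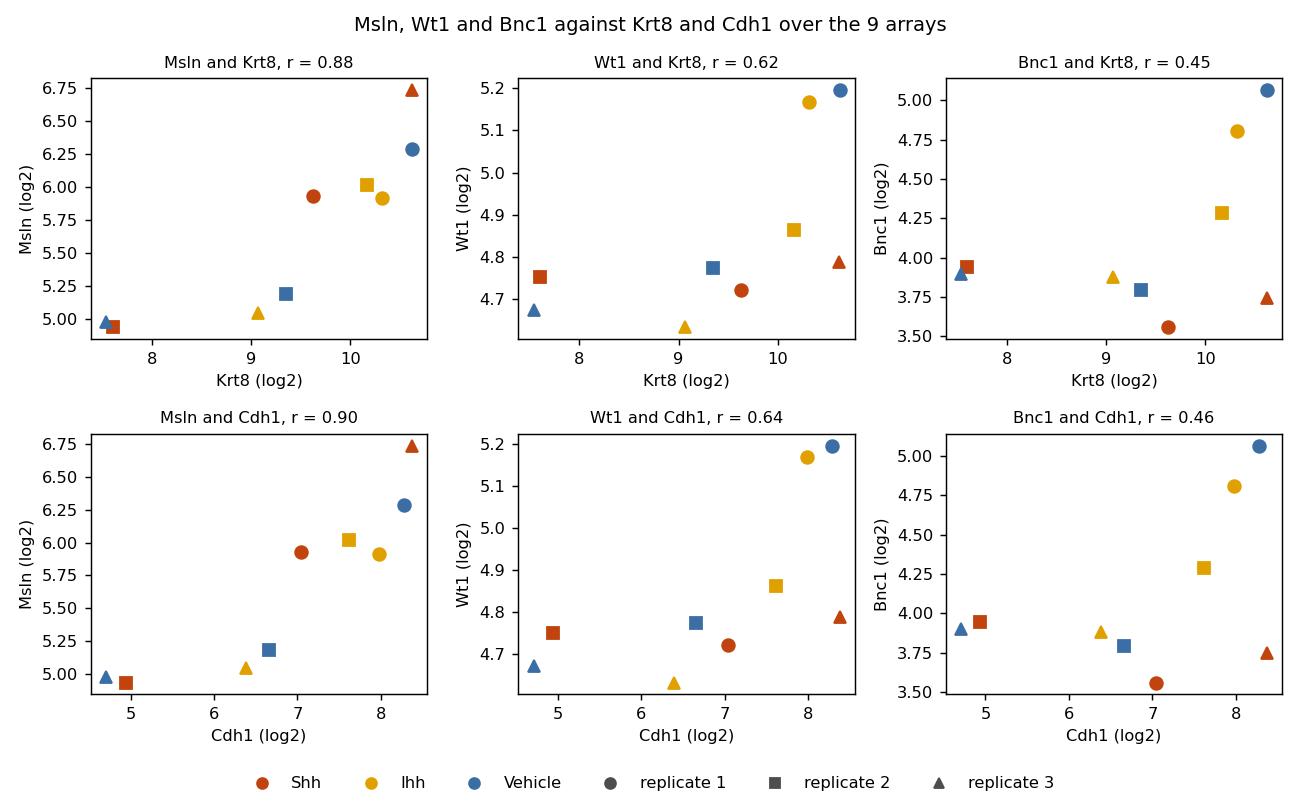
Expression (log2) of Msln, Wt1 and Bnc1 (vertical axes) against Krt8 (top row) and Cdh1 (bottom row), with 1 point per array, colour for treatment and symbol for replicate. Msln rises along both partners in all 3 treatments, while Wt1 and Bnc1 are high on Vehicle 1 and Ihh 1 and not on Shh 3.

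Markers of several other cell types moved with these patterns, though not every marker of a list did. Over 17 epithelium markers the mean level was 6.30, 5.65 and 7.26 log2 with Shh and 6.75, 6.94 and 5.90 with Ihh, against 7.14, 6.38 and 5.70 with Vehicle. Msln correlated with them at a median r of 0.85, within a range of -0.02 to 0.90. For Wt1 that median was 0.60 (range -0.06 to 0.70) and for Bnc1 0.43 (-0.31 to 0.50). Epcam, 1 of these markers, was nearly flat at 7.72 to 7.98 log2. Over 7 enteric neuron markers the mean was highest on Vehicle 1 (8.67) and Ihh 1 (8.63), within a range of 8.01 to 8.67, and 4 of the 7 were highest on 1 of those arrays. Bnc1 correlated with them at a median r of 0.73 (range -0.24 to 0.91), Wt1 at 0.62 (-0.08 to 0.83) and Msln at 0.08 (-0.01 to 0.47). The 7 smooth muscle markers ran opposite, at a median r of -0.80 with Wt1, -0.71 with Bnc1 and -0.33 with Msln. The 2 markers of interstitial cells of Cajal, the pacemaker cells of the gut, had a median r of 0.81 with Wt1, 0.79 with Bnc1 and 0.21 with Msln. For the 4 enteric glia markers that median was 0.63, 0.66 and 0.21, for the 8 endothelium markers 0.66, 0.64 and 0.12, for the 8 fibroblast markers 0.40, 0.41 and -0.20, and for the 8 immune markers 0.14, 0.16 and -0.12, each in the order Wt1, Bnc1 and Msln. Over 8 endothelium markers Vehicle 1 was highest, at 9.25, but Vehicle 2 was close at 9.23, above Ihh 1 at 9.18. Shh 1 was lowest, at 8.66, and all 8 markers had a difference below 0 with both ligands. The median r of the members over all genes was not computed, and the part of these cells in the members' variation was not tested. Among the epithelium markers 0 of 17 were past the threshold in any of the 4 comparisons, also at an unadjusted p under 0.05. In the comparison of both ligands with Vehicle limma placed 0 of the 7 neuron, 4 glia, 8 fibroblast, 2 interstitial cell and 8 endothelium markers past the threshold. Of these markers 2, 2, 3, 0 and 5 had an unadjusted p under 0.05, and the share of all genes at that level was not computed. Of 7 smooth muscle markers 1 was higher, Myocd by 1.19 log2, and of 8 immune markers 1 was higher, Laptm5 by 0.37, and 4 were lower, at differences of -1.66 for Cd14, -1.04 for Adgre1, -0.91 for Itgam and -0.26 for Lyz2. With Shh the endothelial cadherin Cdh5 was also lower, at a difference of -0.59 (limma, adjusted p = 0.0464).

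Of 20 further genes of mesothelium or its precursors, limma placed 1 higher and 2 lower with both ligands, 1 and 1 with Shh, 0 and 1 with Ihh and 0 and 0 between the ligands. The share of all genes past the threshold was 1.51%, 1.73%, 0.649% and 0.011% in these 4 comparisons. Without adjustment the list had 1 higher and 6 lower, 2 and 6, 1 and 4, and 1 and 2 at a p under 0.05. The share of all genes at that unadjusted level was not computed, so these counts have no background to be read against. Their median difference with both ligands was 0.03 log2. Tcf21, a transcription factor of visceral mesenchyme and epicardial cells, stood at 11.44, 11.38 and 11.29 log2 with Shh and 11.14, 11.13 and 11.41 with Ihh, against 10.73, 10.94 and 10.82 with Vehicle, and rose by 0.47 ± 0.08 (SE, adjusted p = 0.0197 with limma). Tbx18, a T-box factor of coelomic and smooth muscle precursors, stood at 6.62, 6.75 and 6.35 with Shh and 6.61, 6.84 and 6.79 with Ihh, against 7.03, 7.21 and 7.10 with Vehicle, and fell by 0.45 ± 0.09 (adjusted p = 0.0416 with limma). Slpi, a secreted protease inhibitor of epithelia and macrophages, stood at 7.18, 7.15 and 7.18 with Shh and 7.13, 7.13 and 6.70 with Ihh, against 7.97, 7.59 and 7.60 with Vehicle, and fell by 0.64 ± 0.11 (adjusted p = 0.027 with limma). In each of these 3 genes the treated arrays lay apart from every Vehicle array, as they did in 6.47% of all genes. The 3 were named for passing this same comparison, so the separation adds no support. All 3 are also expressed in cells other than mesothelium.

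Muc16, the membrane mucin that binds mesothelin, ranged from 3.78 to 3.93 log2. Podxl, a sialomucin of podocytes, endothelium and mesothelium, varied with Wt1 at r = 0.95 over the 9 arrays, and stood at 8.62 on Vehicle 1 and 8.45 on Ihh 1 against 7.63 to 8.02 on the other 7. It had the highest r with Wt1 of the 20 further genes. Their median r was only 0.20 with Wt1 (range -0.53 to 0.95), 0.16 with Bnc1 (-0.56 to 0.89) and 0.24 with Msln (-0.55 to 0.88). The keratins Krt7 and Krt19 varied with Krt8 at r of 0.973 and 0.997 and with Msln at 0.86 and 0.88.

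Among 10916 genes at or above the 40th percentile of level, those most like the mean of the members over the 9 arrays were Ptgis (r = 0.96), Pikfyve (0.96), Fez1 (0.95), Mfsd6 (0.94) and Dock11 (0.93). The most opposite were Exog (-0.93), Trpv6 (-0.93), Serpinh1 (-0.91), Foxn4 (-0.90) and Eif5a (-0.90). Krt8 and Cdh1 had r of 0.75 and 0.77 with that mean. These are the extremes of many genes over few arrays and are given as a description. The mean profile itself was highest on Vehicle 1 (0.39 log2 above the mean of the arrays) and Ihh 1 (0.22) and lowest on Ihh 3 (-0.19). It averaged centred log2 values that were not scaled, so Msln and Bnc1 weighed most in it. Their SD over the 9 arrays was 0.65 and 0.51, against 0.08 to 0.20 for the other members.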

How the data were processed

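Biotin-labelled cRNA was hybridised to 9 Affymetrix arrays, and the authors deposited a log2 level for every one of 45101 probe sets. GCOS and RMA are named in the submitters' processing notes, without versions. RMA corrects background and normalizes between arrays, which hides any shift shared by all genes and narrows differences among low values. That the scale is log2 was read from the range, 2.78 to 14.20. Neither labels nor headers name a batch.

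The platform annotation gave gene names (34945 with 1 symbol, 932 with several, 9160 with none, 64 controls), and 34741 identifiers matched a RefSeq table of GRCm38.p6. Each of 18193 genes took the highest-mean one of its single-symbol probe sets. The model of limma 3.58.1 (lmFit, eBayes; R 4.3.3) had 1 mean per treatment over all 9 arrays, with two-sided p adjusted by Benjamini-Hochberg over all genes and a threshold of 0.05. Correlations over arrays used exact permutation (Python 3.11.15, numpy 2.4.6), adjusted over 14 relations. Replicate numbers come from the titles. The correlation of deviations from the group means was 0.35, 0.23 and 0.54 for the same-numbered Ihh and Vehicle arrays. It was -0.30 to 0.14 for the 6 same-numbered pairs with a Shh array, and -0.48 to 0.29 for the 18 pairs of different number. Between Ihh and Vehicle alone, pairs of different number ran from -0.48 to 0.22. Every same-numbered Ihh and Vehicle pair thus lay above them, the second one narrowly. The pairs with a Shh array did not show this order, and these values do not establish a pairing. The main fit and the permutations over 9 arrays used none, and the replicate number entered only as a block in alternative settings. The members, lists, tests and the rule for named genes (all members and their probe sets, Krt8, Cdh1, Ptch1, Gli1, Hhip, list genes past the threshold or at the ends of level, the last left out where levels of different probe sets would be ranked, and the 5 genes most and least like the members) were chosen with earlier results of these data known. Xist was added as a check, and Podxl, Krt7 and Krt19 were named after their values were seen. Simulated data with known answers served to test the fits and permutations. The number of arrays limits the precision.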

Additional observations from a re-analysis of the deposited data

How the results depend on the processing

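The count of members past the threshold was 0 in all 72 combinations of setting and comparison, which used the replicate block, other normalization, scaling, probe set choice, variance model and weights, the compared groups alone and each array left out (at most 2 members at an unadjusted p under 0.05, and a smallest adjusted p of 0.115). No member was at or above the 40th percentile of level, so the setting without dim genes gave no value for them. Without less specific probe sets 6 members were left, Wt1 being absent, and Gpm6a was measured by its other probe set. With the replicate block all genes called were 522 for Shh against Vehicle, against 314 without it. For Ihh against Vehicle a block in the fit of these arrays alone gave 280, against 87 in that fit without it and 118 in the main fit. The block moved no other count by over 1.5 times and changed no call of a member. Array weights gave 1126, 1017 and 498 for both ligands, Shh and Ihh against Vehicle, against 274, 314 and 118. For Shh against Ihh the compared groups alone gave 0, against 2. With 1 array left out these counts ran from 99 (without Vehicle 2) to 416 (without Vehicle 3), 80 (without Vehicle 1) to 675 (without Vehicle 3), 53 (without Ihh 2) to 229 (without Vehicle 3) and 1 to 2. Members past the threshold in their correlation with Krt8 numbered 2 by Spearman's rho and 2 with treatment means removed, against 1, and with Cdh1 2 with treatment means removed, against 1. The median correlation among members ran from 0.14 (without Vehicle 1) to 0.62, against 0.50. Msln kept its correlations past the threshold in every setting run, at 0.86 to 0.91 with Krt8 and 0.88 to 0.92 with Cdh1 with 1 array left out.

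Small uncalled values changed sign, and the cause was not tested. Upk1b differences were 0.0312 for both ligands, 0.0626 for Ihh and -0.0629 for Shh against Ihh with the mean of probe sets, and 0.18, 0.22 and -0.20 for the probe set with the smallest p (0.14 for Shh). Gpm6a was -0.0025 for both ligands and Upk1b -0.0052 between the ligands after quantile normalization. Array weights gave Bnc1 0.0257 for both ligands, Gpm6a 0.0017 for Shh and Upk1b -0.0065 between the ligands. Gpm6a was 0.028 for Shh without less specific probe sets, Wt1 -0.0018 for Ihh with centred arrays, and the r with Cdh1 was -0.003 for Upk1b with centred arrays and -0.0848 for Lrrn4 by Spearman's rho. With 1 array left out, differences for both ligands ran from -0.16 to 0.10 for Wt1, -0.0457 to 0.0681 for Gpm6a and -0.44 to 0.19 for Bnc1. For Shh they ran from -0.23 to 0.0301 for Wt1, -0.10 to 0.017 for Upk1b, -0.0485 to 0.85 for Msln and -0.11 to 0.0074 for Gpm6a. For Ihh they ran from -0.13 to 0.16 for Wt1, -0.15 to 0.0058 for Upk3b, -0.0762 to 0.58 for Msln, -0.0097 to 0.13 for Gpm6a and -0.17 to 0.48 for Bnc1. Between the ligands they ran from -0.26 to 0.0057 for Wt1, -0.0237 to 0.0928 for Upk1b and -0.22 to 0.67 for Msln. Correlations with Krt8 and Cdh1 ran from -0.13 to 0.36 and -0.15 to 0.37 for Upk1b, -0.22 to 0.39 and -0.25 to 0.41 for Lrrn4, and -0.0467 to 0.34 and -0.0221 to 0.39 for Gpm6a. The centring, the mean over probe sets and the treatment deviations of the correlations were among the planned settings, as was the test of differences over single probe sets. The correlations of single probe sets with Krt8 and Cdh1, the settings for pairs of members and the block in the fit of Ihh and Vehicle alone were added after seeing the data.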
